A study of Caenorhabditis elegans with 8 samples.

Results

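Touch receptor neuron effector genes are the genes that give the gentle touch neurons of Caenorhabditis elegans their mechanosensory channel, their specialised microtubules and their attachment to the body wall. The 10 genes described here were taken by symbol: mec-1, mec-2, mec-4, mec-6, mec-7, mec-9, mec-10, mec-12, mec-17 and mec-18. All 10 had a row among the 46748 genes of the count table, and the rule used symbols alone. The samples were whole nematodes of the wild-type strain N2, fed bacteria carrying the empty RNAi plasmid L4440 (2 libraries), an hlh-2 RNAi plasmid (3 libraries) or a lin-32 RNAi plasmid (3 libraries). All groups shared the N2 background and RNAi feeding. Their developmental stage was not given in the sources used here. Nothing in the labels says whether replicates were separate cultures, so the p-values describe library-to-library spread, which may be technical.

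Gentle touch to the body is sensed by a small set of neurons whose long processes lie beneath the cuticle and are filled with thick bundles of large-diameter microtubules. A channel of the DEG/ENaC family opens when the skin is touched, and proteins of the surrounding matrix hold the process in place. The POU homeodomain protein UNC-86 and the LIM homeodomain protein MEC-3 act together to turn on the terminal genes of these cells. LIN-32, an Atonal-like basic helix-loop-helix (bHLH) protein, acts earlier, in the neuroblasts that give rise to some of them, and HLH-2 is the E protein with which such bHLH proteins pair. The comparisons ask whether RNAi feeding against either factor was accompanied by a different level of the terminal genes in whole animals.

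Total counts ran from 22380739 to 34814808 per library, and 14272 genes passed the filter on low counts and were tested. Levels are CPM (counts brought to a common depth, with TMM composition factors) and are given as mean ± SD. Unless stated otherwise, adjusted p-values come from edgeR's quasi-likelihood test with Benjamini-Hochberg adjustment over all tested genes. The threshold was 0.05. Groups are named by their labels. The hlh-2 transcript was 22.1 ± 6.16 CPM (SD, n = 3) in the lin-32-labelled libraries and 50.6 ± 2.87 CPM (SD, n = 3) in the hlh-2-labelled libraries, against 49.8 ± 1.16 CPM (SD, n = 2) in L4440. The hlh-2 label was therefore not borne out by its target transcript. The lin-32 transcript was scarce and lay at 0.678 to 0.976 CPM in the lin-32-labelled libraries, at 1.42 and 1.5 CPM in L4440, and at 2.06 to 3.40 CPM in the hlh-2-labelled libraries. Neither difference of lin-32 from L4440 passed the test (edgeR adjusted p = 0.233 and 0.456). Markers of all neurons, body wall muscle, hypodermis, intestine, pharynx and germline were each found at a summed level of at least 52.6 CPM in every library. Summed germline markers were lower than both controls (4070 and 4130 CPM) in hlh-2 RNAi (3880 to 3910 CPM) and lin-32 RNAi (3640 to 3940 CPM). The intestine sum was lower too (17400 and 17700, then 16200 to 16500 and 15500 to 16900 CPM), but it was mostly vit-2. That gene was at 16100 and 15800 CPM in L4440, 14700 to 14900 CPM in hlh-2 RNAi and 14000 to 15300 CPM in lin-32 RNAi. In both RNAi groups elt-2, ifb-2, act-5 and cpr-6 overlapped the controls. The ges-1 gene overlapped them in hlh-2 RNAi and was higher in lin-32 RNAi (26.9 to 28.3 against 26 and 23 CPM). The pharynx sum was lower in lin-32 RNAi (52.6 to 54.6 against 56.1 and 58.7 CPM). There myo-2 was at 19.4 to 20.7 against 21.6 and 22.4 CPM. The tnt-4 gene was at 3.29 to 3.73 against 4.44 and 4.25 CPM, while myo-1, pha-4 and ceh-22 overlapped the controls. The sum over all neurons was not lower in lin-32 RNAi (at least 113 CPM, against 111 and 114 CPM). Among its markers unc-31 alone lay below both controls there (2.79 to 3.11 against 3.81 and 3.16 CPM). The part of these shifts in the results was not tested. The 5 sperm markers summed to at most 0.924 CPM.

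No touch receptor neuron gene passed the test in any comparison. In the lin-32-labelled libraries, 0 of the 10 genes passed the test against L4440, where 0.743% of all tested genes passed. In the hlh-2-labelled libraries, 0 of 10 passed, against 0.203% of all tested genes. Between both RNAi groups 0 of 10 passed, against 0.406% of all tested genes. At an unadjusted p under 0.05 the edgeR count was also 0 in each comparison, where 12.6%, 6.78% and 7.97% of all tested genes lay. DESeq2 and limma-voom called 0 as well, although DESeq2 gave no adjusted p for mec-4, mec-9, mec-10 and mec-18 in hlh-2 RNAi against L4440. With the replicate number as a block, which pairs the libraries of both RNAi groups, 132 genes rather than 58 passed between these groups, and the count for the touch receptor neuron genes was still 0. The shares called over all genes are small, so a count of 0 among 10 genes is near this background.

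The whole set took a very small part of each library, which bounds what these counts can show. Together the 10 genes held 714 to 1014 counts per library. Their summed level was 32.4 and 30.6 CPM in L4440, 28.1, 29.9 and 31.2 CPM in the hlh-2-labelled libraries, and 27.6, 27.4 and 30.0 CPM in the lin-32-labelled libraries. The 3 lin-32 RNAi libraries lay below both controls in this sum, although in each gene by itself the libraries overlapped those of the controls (0 of 10 without overlap, against 29.8% of all tested genes). The hlh-2 RNAi libraries overlapped both other groups. From 75.6% to 80.2% of the sum came from mec-7, mec-12 and mec-17. In whole animals a smaller number of touch neurons and less RNA per neuron cannot be told apart.

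**Figure D1:**
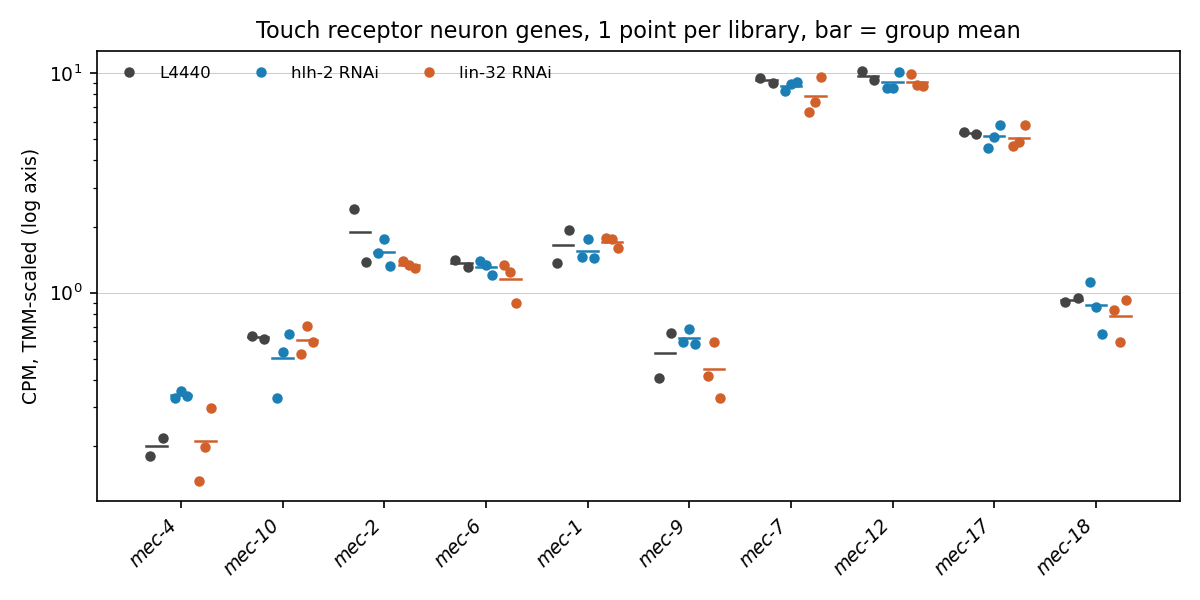
Level of each touch receptor neuron gene in CPM on a log axis, with 1 point for each of the 8 libraries, coloured by group as labelled, and a bar at the group mean. The genes fall into a high set of mec-7, mec-12 and mec-17 between 4.55 and 10.2 CPM and a low set at 2.4 CPM or below. Groups overlap in every gene except mec-4, where the hlh-2-labelled libraries stand above the others.

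Levels per kilobase of merged exons put the microtubule genes far above the channel and matrix genes. The highest was mec-12 at 5.73 ± 0.432 CPM per kb (SD, n = 8), then mec-7 at 5.48 ± 0.67 and mec-17 at 5.01 ± 0.466 CPM per kb (SD, n = 8 each). The ranges of these 3 genes over the libraries overlapped, so their order is not settled. A gap followed, from the lowest mec-17 library at 4.41 CPM per kb to the highest mec-6 library at 0.905 CPM per kb. After mec-6 at a mean of 0.813 CPM per kb came mec-18 at 0.414, whose highest library at 0.543 lay just under the lowest mec-6 library at 0.577 CPM per kb. The remaining levels were 0.269 for mec-2, 0.247 for mec-1, 0.23 for mec-10, 0.173 for mec-9 and 0.108 CPM per kb for mec-4, and each of these overlapped its neighbour in the order. The lowest mean thus belonged to mec-4, which encodes the main pore-forming subunit of the touch channel. Its range overlapped that of mec-9, so the order of this pair is not settled.

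The channel subunit genes mec-4 and mec-10 stood on few counts. The mec-4 gene (WBGene00003168, chromosome X, 16803321 to 16807115, minus strand, WBcel235, protein coding) had 4 and 6 counts in L4440, 10, 12 and 11 in the hlh-2-labelled libraries, and 4, 7 and 9 in the lin-32-labelled libraries. In CPM these were 0.181 and 0.218, then 0.33, 0.358 and 0.338, then 0.139, 0.198 and 0.299. All 3 hlh-2 RNAi libraries were above every other library, and the lin-32 RNAi libraries enclosed the controls. The log2 fold change of mec-4 in hlh-2 RNAi against L4440 was 0.75 ± 0.461 (SE), with a 95% interval of -0.24 to 1.76 and an edgeR adjusted p of 0.809. Against lin-32 RNAi it was 0.68 ± 0.376 (SE, edgeR adjusted p = 0.71). The filter's level of 0.332 CPM is per total count, without the TMM factors. On that scale mec-4 was at 0.336, 0.36 and 0.337 CPM in hlh-2 RNAi and at 0.296 CPM or less in the other libraries, so this gene entered the test through the group in which it was highest. Groups that do not overlap, in either direction, were seen in 24.1% of all tested genes for hlh-2 RNAi against L4440. For the RNAi groups against each other the share was 13.7%. With hlh-2 RNAi higher, the counts were 1704 and 972 of 14272 genes. The share with hlh-2 RNAi libraries above all 5 others, as in mec-4, was not counted. Counting error alone gave the summed mec-4 counts exact 95% Poisson intervals of 0.0967 to 0.371 CPM in L4440 and 0.236 to 0.481 CPM in hlh-2 RNAi, which overlap.

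MEC-10 is the partner subunit of MEC-4 in the same channel. The mec-10 gene (WBGene00003174, chromosome X, 8465760 to 8470314, minus strand, a protein-coding gene) was at 0.635 and 0.617 CPM in L4440. It was at 0.33, 0.536 and 0.645 CPM in the hlh-2-labelled libraries and at 0.523, 0.706 and 0.598 CPM in the lin-32-labelled libraries. The lowest library was hlh-2 RNAi replicate 1, and all groups overlapped. The log2 fold change was -0.30 ± 0.342 in hlh-2 RNAi and -0.026 ± 0.332 in lin-32 RNAi (SE, edgeR adjusted p = 0.924 and 0.985). The estimates for mec-10 were thus near or below 0 where that of mec-4 in hlh-2 RNAi was above it, and neither passed.

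The accessory genes mec-2 and mec-6 act on the same channel. MEC-2 is a stomatin-like membrane protein that raises channel activity. Its gene (WBGene00003166, chromosome X, 5567754 to 5590830, plus strand, a protein-coding gene) was at 2.40 and 1.38 CPM in L4440, at 1.52, 1.76 and 1.32 CPM in hlh-2 RNAi, and at 1.39, 1.33 and 1.29 CPM in lin-32 RNAi. The controls differed from each other by more than the lin-32 RNAi libraries did, and L4440 replicate 1 was above all other libraries. The log2 fold change of mec-2 in lin-32 RNAi was -0.47 ± 0.245 (SE), with a 95% interval of -1 to 0.06 and an edgeR adjusted p of 0.466. Among the 10 genes it was the lowest value in that comparison, and without L4440 replicate 1 it was -0.045.

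MEC-6 is a paraoxonase-like membrane protein needed to assemble the channel. The mec-6 gene (WBGene00003170, chromosome I, 6724867 to 6728330, plus strand, a protein-coding gene) was at 1.41 and 1.31 CPM in L4440. In the hlh-2-labelled libraries it was at 1.39, 1.34 and 1.2 CPM, and in the lin-32-labelled libraries at 1.33, 1.24 and 0.896 CPM. The lowest library was lin-32 RNAi replicate 3, while replicate 1 of that group lay between the controls. Its log2 fold change was -0.23 ± 0.228 in lin-32 RNAi and -0.049 ± 0.224 in hlh-2 RNAi (SE, edgeR adjusted p = 0.744 and 0.986).

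The matrix genes mec-1 and mec-9 encode secreted proteins with Kunitz-type and EGF-like domains. MEC-1 is needed to attach the touch neuron to the hypodermis and to place the channel along the process. The mec-1 gene (WBGene00003165, chromosome V, 6956537 to 6966425, plus strand, a protein-coding gene) was at 1.36 and 1.92 CPM in L4440, at 1.45, 1.76 and 1.44 CPM in hlh-2 RNAi, and at 1.78, 1.75 and 1.59 CPM in lin-32 RNAi. Every library of both RNAi groups lay between the controls. Its log2 fold change was 0.039 ± 0.207 in lin-32 RNAi and -0.10 ± 0.209 in hlh-2 RNAi (SE, edgeR adjusted p = 0.964 and 0.967).

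The mec-9 gene (WBGene00003173, chromosome V, 9907615 to 9915121, minus strand, a protein-coding gene) was at 0.408 and 0.654 CPM in L4440. It was at 0.594, 0.685 and 0.584 CPM in the hlh-2-labelled libraries and at 0.418, 0.593 and 0.332 CPM in the lin-32-labelled libraries. Between the RNAi groups the ranges touched closely, with the lowest hlh-2 RNAi library just under the highest lin-32 RNAi library. The log2 difference of mec-9 between them was 0.45 ± 0.299 (SE, edgeR adjusted p = 0.773), and leaving out L4440 replicate 2 turned its log2 fold change in lin-32 RNAi from -0.25 to 0.15.

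The tubulin genes mec-7 and mec-12 and the acetyltransferase gene mec-17 had the counts to show smaller changes. MEC-7 is the beta-tubulin of the touch neuron microtubules. The mec-7 gene (WBGene00003171, chromosome X, 7774856 to 7776689, minus strand, protein coding) had 210 and 249 counts in L4440, 251, 300 and 296 in hlh-2 RNAi, and 191, 262 and 289 in lin-32 RNAi. In CPM it was at 9.52 and 9.04 in L4440, at 8.28, 8.94 and 9.09 in hlh-2 RNAi, and at 6.66, 7.40 and 9.60 in lin-32 RNAi. A pair of lin-32 RNAi libraries lay below all others and replicate 3 of that group lay above all others. The log2 fold change in lin-32 RNAi was -0.23 ± 0.136 (SE), a fold of 0.85 with a 95% interval of 0.693 to 1.04 (edgeR adjusted p = 0.523). Without lin-32 RNAi replicate 3 the value for mec-7 was -0.40 (edgeR adjusted p = 0.181), the smallest adjusted p of any of the 10 genes in any of the 16 alternatives. In hlh-2 RNAi the log2 fold change of mec-7 was -0.079 ± 0.135 (SE, edgeR adjusted p = 0.96).

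MEC-12 is an alpha-tubulin, the pair of MEC-7 in these microtubules, and it is also made in other neurons. The mec-12 gene (WBGene00003175, chromosome III, 3131574 to 3139234, minus strand, a protein-coding gene) was at 10.2 and 9.26 CPM in L4440, at 8.51, 8.58 and 10.1 CPM in hlh-2 RNAi, and at 9.87, 8.79 and 8.70 CPM in lin-32 RNAi. The groups overlapped throughout, and the highest library was 1.19-fold above the lowest. The fold in lin-32 RNAi was 0.94 with a 95% interval of 0.799 to 1.11 (edgeR adjusted p = 0.798). In hlh-2 RNAi it was 0.935 with an interval of 0.795 to 1.10 (edgeR adjusted p = 0.921).

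MEC-17 acetylates alpha-tubulin in the lumen of microtubules. The mec-17 gene (WBGene00003178, chromosome IV, 7983802 to 7987183, minus strand, a protein-coding gene) was at 5.40 and 5.26 CPM in L4440, at 4.55, 5.10 and 5.81 CPM in hlh-2 RNAi, and at 4.64, 4.83 and 5.78 CPM in lin-32 RNAi. In each RNAi group replicate 3 was above both controls and the other libraries were below them. Its fold was 0.954 in lin-32 RNAi, with a 95% interval of 0.771 to 1.18, and 0.968 in hlh-2 RNAi, with an interval of 0.783 to 1.2 (edgeR adjusted p = 0.893 and 0.983).

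The mec-18 gene (WBGene00003179, chromosome X, 4271165 to 4274216, minus strand, protein coding) encodes a protein related to firefly luciferase and acyl-CoA ligases. It was at 0.907 and 0.944 CPM in L4440, at 1.12, 0.864 and 0.645 CPM in hlh-2 RNAi, and at 0.837, 0.593 and 0.93 CPM in lin-32 RNAi. The controls lay close together and within the span of the hlh-2 RNAi libraries. The log2 fold change was -0.25 ± 0.307 in lin-32 RNAi and -0.086 ± 0.301 in hlh-2 RNAi (SE, edgeR adjusted p = 0.799 and 0.984).

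**Figure D2:**
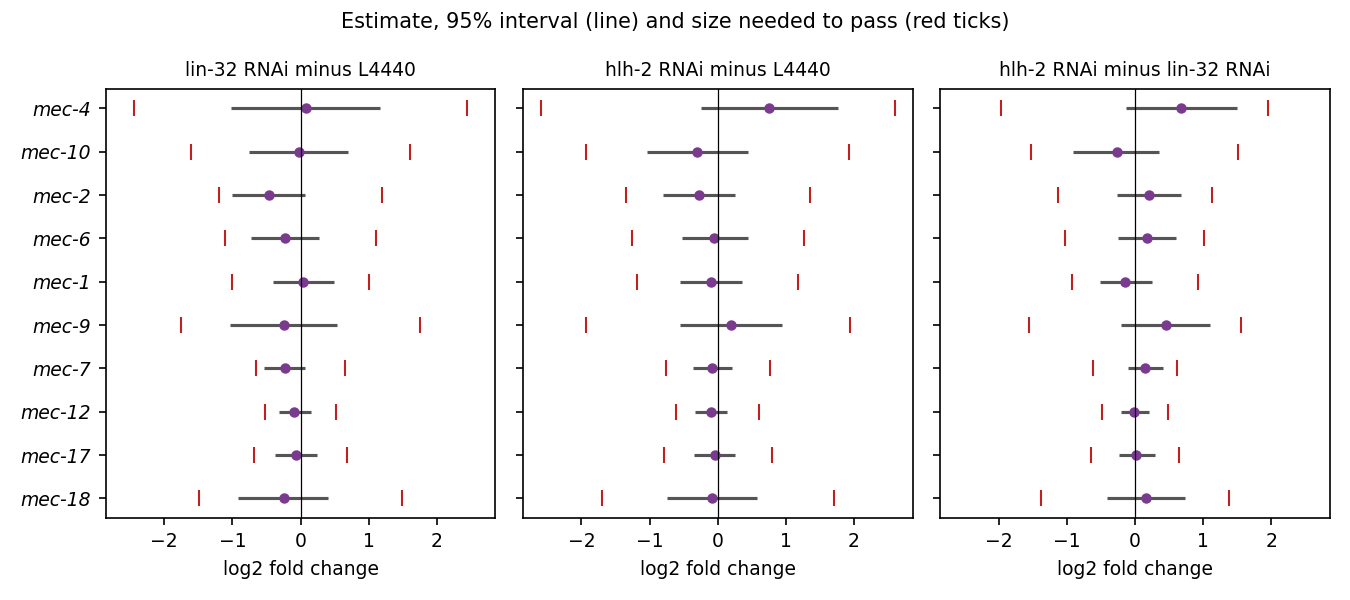
Log2 fold change of each gene (point) with its 95% interval (line) in the 3 comparisons, groups as labelled, and red ticks at the smallest change that would have passed the test at that gene's standard error. Every interval includes 0, and the ticks lie at 0.52 for mec-12 and at 2.45 for mec-4 in lin-32 RNAi against L4440.

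The size of change that could have been called differed widely between the genes. The largest p called among all genes in lin-32 RNAi against L4440 was 0.00037. At that p and each gene's own standard error, a change of 1.44-fold in mec-12, 1.58-fold in mec-7 or 1.61-fold in mec-17 would have passed. For mec-1, mec-6 and mec-2 the size was 2-fold, 2.15-fold and 2.28-fold. For mec-18, mec-10, mec-9 and mec-4 it was 2.81-fold, 3.05-fold, 3.39-fold and 5.47-fold. A 2-fold change in the matrix or channel genes was therefore at or under the limit of these libraries. The 95% intervals of mec-7, mec-12 and mec-17 in lin-32 RNAi did not reach below a fold of 0.693. Those intervals take no account of reads that may come from other tubulin genes or, for mec-17, from its neighbour arf-5 (both below).

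As a set the genes lay slightly below 0 against L4440, without any passing. Their median log2 fold change was -0.16 in lin-32 RNAi, with 2 of 10 above 0, while the median over all tested genes was 0.0015. In hlh-2 RNAi the median of the 10 was -0.083, with 2 of 10 above 0, and that over all tested genes was -0.00068. Both values use the same 2 control libraries. Between hlh-2 RNAi and lin-32 RNAi the median was 0.16, with 7 of 10 above 0, and -0.0015 over all genes. The pooled within-group SD of the libraries' median log2 CPM over the 10 genes was 0.137. That SD describes levels in single libraries and is not the error of the median fold changes. Pairs of these genes moved in either direction relative to each other. The Pearson correlation of log2 CPM over the 45 pairs had a median of -0.037 and ran from -0.72 to 0.78, with 20 pairs above 0.

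**Figure D3:**
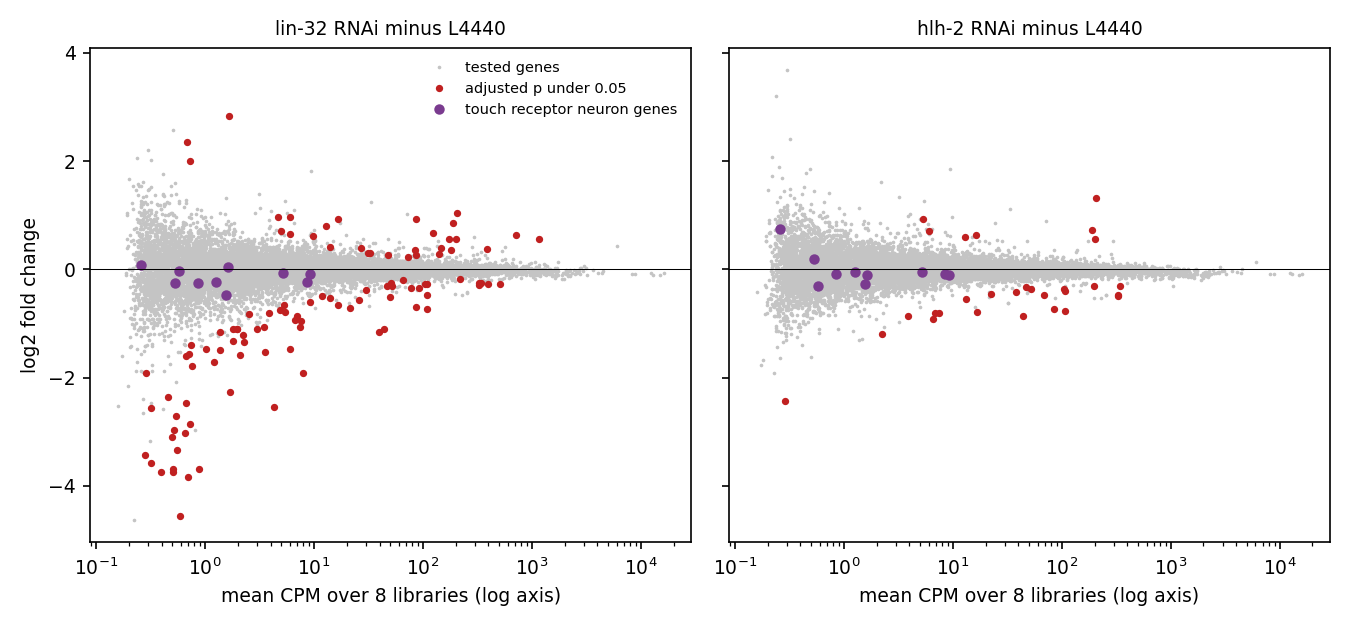
Log2 fold change against mean CPM over 8 libraries (log axis) for all 14272 tested genes in the lin-32-labelled libraries and in the hlh-2-labelled libraries, each against L4440. Genes with an adjusted p under 0.05 are red, and the 10 touch receptor neuron genes, in purple, lie among the grey points of genes that did not pass.

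Few of the listed regulators of touch neuron fate passed the test in the lin-32-labelled libraries. Of 17 tested, 2 fell and none rose against L4440, where 0.533% of all tested genes fell, and the median log2 fold change was -0.17. They were egl-46, whose zinc finger protein works with EGL-44 to hold back the touch neuron program in FLP neurons, and hlh-2 itself. Without hlh-2 and lin-32, the genes targeted by the RNAi, 1 of 15 regulators fell (egl-46) and the median was -0.081. This list, like the others, was chosen with earlier results of these data known. Its counts beside the share over all genes are therefore a description and no test. The egl-46 gene was at 8.25 and 5.70 CPM in L4440 and at 1.22, 1.33 and 0.996 CPM in lin-32 RNAi, so that every lin-32 RNAi library was below both controls. The log2 change was -2.54 ± 0.198 (SE, edgeR adjusted p = 0.000114). The hlh-2 fall was -1.16 ± 0.153 (log2, SE, edgeR adjusted p = 0.0041), and it lost its call without L4440 replicate 2 (edgeR adjusted p = 0.0678), while the log2 fold change was -1.19. The egl-44 gene, which encodes the TEAD partner of EGL-46, was at -0.044 ± 0.0878 (log2, SE, edgeR adjusted p = 0.89).

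The direct activators did not pass the test. The unc-86 gene was at 1.5 and 1.34 CPM in L4440, at 1.39, 1.4 and 1.44 CPM in hlh-2 RNAi, and at 0.872, 1.02 and 0.631 CPM in lin-32 RNAi. All lin-32 RNAi libraries of unc-86 lay below all 5 others. Over all tested genes, 15.4% had lin-32 RNAi libraries below both controls, a looser criterion. The share with these libraries below all 5 others was not counted. Its log2 fold change was -0.74 ± 0.238 (SE, edgeR adjusted p = 0.215). The mec-3 gene, which UNC-86 activates, was at 0.544 and 0.799 CPM in L4440 and at 0.976, 0.791 and 0.465 CPM in lin-32 RNAi, with full overlap. Its log2 fold change was 0.12 ± 0.359 (SE, edgeR adjusted p = 0.926). The homeobox gene alr-1, which makes touch neuron differentiation more reliable, was at -0.0051 ± 0.165 (log2, SE, edgeR adjusted p = 0.993).

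The zinc finger homeobox gene zag-1, which promotes touch neuron fate over that of other mechanosensory neurons, was at 4.04 and 3.67 CPM in L4440 and at 1.60, 2.49 and 1.73 CPM in lin-32 RNAi. Those libraries were below both controls, and the log2 value of -0.97 ± 0.213 (SE) missed the threshold (edgeR adjusted p = 0.0605). Among the 16 alternatives zag-1 passed with DESeq2 (adjusted p = 0.0159), with the replicate block (edgeR adjusted p = 0.0241) and with no filter (1.43e-05). It also passed without hlh-2-labelled replicate 1 (0.0308) and without lin-32-labelled replicate 2 (0.0402), but in no other alternative. Over all genes the first 4 of these settings called 177, 350, 610 and 157 genes, against 106 in the main fit. The last called 60. The aryl hydrocarbon receptor gene ahr-1 was at -0.72 ± 0.293 (log2, SE, edgeR adjusted p = 0.331). Against L4440 no regulator passed in hlh-2 RNAi with edgeR, where the median was 0.034 and 1 of 17 had an unadjusted p under 0.05. Between hlh-2 RNAi and lin-32 RNAi 4 of 17 were higher in the former, as were 0.294% of all tested genes, and none was lower. Since hlh-2 and lin-32 are the targets of the RNAi, the count without them was 2 of 15. These counts too come from a list chosen with earlier results known. The 4 genes were egl-46, hlh-2, lin-32 and zag-1, with log2 differences of 2.23, 1.19, 1.71 and 0.99 and edgeR adjusted p-values of 0.000225, 0.00171, 0.00666 and 0.0403. The zag-1 call ended when either control was left out, or hlh-2-labelled replicate 2 or 3, or lin-32-labelled replicate 1 or 3 (edgeR adjusted p from 0.0688 to 0.179), while the log2 difference was 0.88 to 1. It also ended with limma-voom, with a filter of 1 CPM and with a fit of only both RNAi groups (adjusted p = 0.0535, 0.056 and 0.0764). It held with the replicate block (edgeR adjusted p = 0.0152), with DESeq2 (adjusted p = 0.0029) and without hlh-2-labelled replicate 1 or lin-32-labelled replicate 2 (edgeR adjusted p = 0.0126 and 0.0382). That of lin-32 ended without replicate 2 of lin-32 RNAi (edgeR adjusted p = 0.0526). Whether the regulators and the terminal genes differed in response was not tested.

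**Figure D4:**
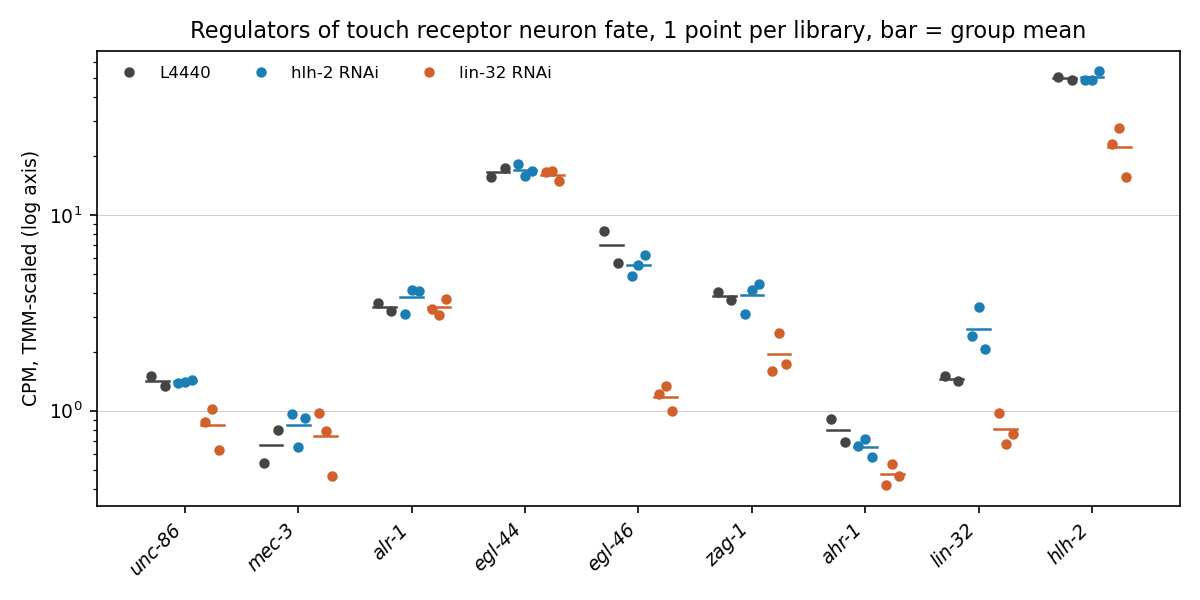
Level of 9 regulators of touch neuron fate in CPM on a log axis, with 1 point for each of the 8 libraries, coloured by group as labelled, and a bar at the group mean. The lin-32-labelled libraries lie below both controls for unc-86, egl-46, zag-1, ahr-1, lin-32 and hlh-2 and overlap them for mec-3, alr-1 and egl-44, although only egl-46 and hlh-2 passed the test against L4440. These 9 were chosen after their values were seen. Over the whole list 7 of 17 lay below both controls, against 15.4% of all tested genes. Without hlh-2 and lin-32, the genes targeted by the RNAi, the count was 5 of 15. The whole list was chosen with earlier results of these data known.

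Other genes of touch function, including mec-5, mec-8 and mec-15, gave no call. Of the 22 genes listed, 21 were tested, and mec-14, an aldo-keto reductase gene that modulates the channel, was left out with 0 to 4 counts per library. None of the 21 passed in lin-32 RNAi (median log2 fold change -0.00012), in hlh-2 RNAi (0.039) or between them (0.0067). At an unadjusted p under 0.05 there were 3, 1 and 3 of 21, against 12.6%, 6.78% and 7.97% of all tested genes. The lowest p-values in lin-32 RNAi belonged to the kinesin-13 gene klp-7 at -0.12 ± 0.0381, the ankyrin gene unc-44 at -0.12 ± 0.0413 and the F-box gene mec-15 at 0.076 ± 0.0335 (log2, SE, edgeR adjusted p = 0.191, 0.252 and 0.382). The collagen gene mec-5, made by the hypodermis for the touch neuron matrix, was at 10.2 and 9.66 CPM in L4440 and at 9.58 to 10.4 CPM in lin-32 RNAi.

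Within their gene families the touch neuron members were minor in whole animals. Per kilobase, mec-12 made up 0.294% of the summed level of 9 alpha-tubulin genes and mec-7 made up 0.229% of that of 6 beta-tubulin genes. The tubulins tbb-2, tba-2, tba-1 and tbb-1 stood at 1650, 1120, 787 and 707 CPM per kb. Coding sequences of tubulins are alike, and how reads that match several genes were counted was not stated in the sources used here, so the levels of mec-7 and mec-12 are uncertain. Among 30 DEG/ENaC channel genes mec-10 ranked 14 and mec-4 ranked 23 by level per kilobase. In a joint list of 15 stomatin and paraoxonase-like genes, which are separate families, mec-6 ranked 8 and mec-2 ranked 13.

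Of the tubulin and tubulin acetylation genes, 19 of 20 were tested and 1 fell in lin-32 RNAi, where 0.533% of all tested genes fell. At an unadjusted p under 0.05 there were 2 of 19 in that comparison, against 12.6% of all tested genes. That gene was tbb-4, a beta-tubulin of ciliated sensory neurons, with 2.27 and 2.47 CPM in L4440, 2.05, 3.16 and 2.21 CPM in hlh-2 RNAi, and 0.593, 0.367 and 0.531 CPM in lin-32 RNAi. The lin-32 RNAi libraries of tbb-4 lay far below all others, and the log2 fold change was -2.27 ± 0.277 (SE, edgeR adjusted p = 0.00205). The call was lost without L4440 replicate 2 (edgeR adjusted p = 0.0659), while the log2 fold change was -2.20. Between the RNAi groups tbb-4 was higher in hlh-2 RNAi, by 2.33 ± 0.245 (log2, SE, edgeR adjusted p = 0.000819). The median of the list in lin-32 RNAi was -0.10.

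None of the 22 tested DEG/ENaC genes passed in any comparison with edgeR, and 1 had an unadjusted p under 0.05 in each. Over all tested genes 0.743%, 0.203% and 0.406% passed in lin-32 RNAi, in hlh-2 RNAi and between them, and 12.6%, 6.78% and 7.97% had an unadjusted p under 0.05. The lowest p in lin-32 RNAi was that of flr-1, a channel gene of the intestine, at 0.31 ± 0.134 (log2, SE, edgeR adjusted p = 0.378). None of the 14 tested stomatin and paraoxonase-like genes passed either, with 0, 0 and 1 at an unadjusted p under 0.05, the last being the stomatin gene sto-1 between the RNAi groups at 0.28 ± 0.103 (log2, SE, edgeR adjusted p = 0.50). The 21 genes listed as pan-neuronal had median log2 fold changes of -0.014 in lin-32 RNAi and 0.021 in hlh-2 RNAi. None passed with edgeR (0 and 1 at an unadjusted p under 0.05). The list includes the abundant tubulin gene tbb-1, which made up 62.7% of its summed level per kilobase. Whether the list stands for neurons alone was not tested. Markers of FLP and PVD, neurons that share MEC-3 and some of these genes, summed to 6.61 and 6.85 CPM in L4440, 6.33 to 6.88 CPM in hlh-2 RNAi and 4.38 to 5.31 CPM in lin-32 RNAi. All 6 of these markers had counts in every library. The sum was lower in lin-32 RNAi mainly through dma-1, at 2.95 and 2.07 CPM in L4440 and 1.33 to 1.69 CPM in lin-32 RNAi, and unc-86. The lin-32 RNAi libraries of deg-3 (0.558 to 0.763 against 0.862 and 0.944 CPM) and ser-2 (0.365 to 0.418 against 0.544 and 0.472 CPM) also lay below both controls. Those of des-2 and mec-3 overlapped the controls. Over all tested genes 15.4% had lin-32 RNAi libraries below both controls. Of these markers, unc-86 and mec-3 are also touch neuron genes, and their part in the levels above was not tested.

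**Figure D5:**
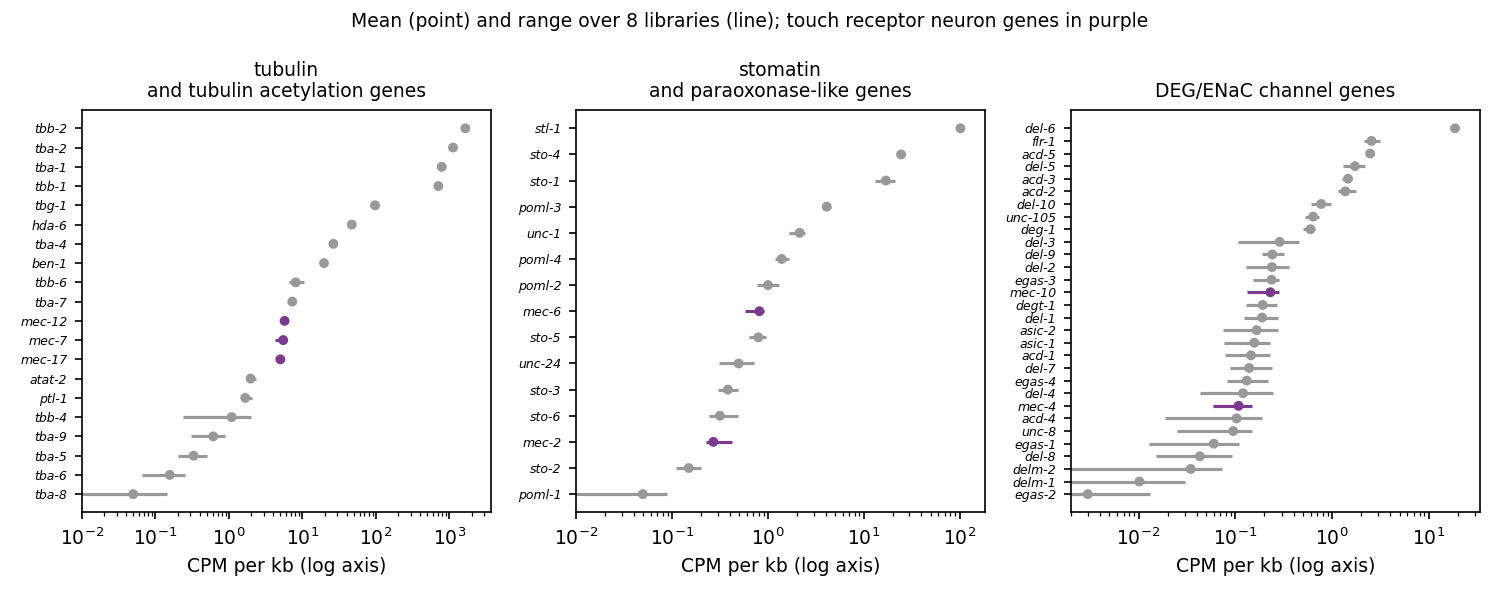
Level in CPM per kb of merged exons (log axis) of the tubulin, stomatin, paraoxonase-like and DEG/ENaC families, with the mean (point) and range (line) over 8 libraries, and touch receptor neuron genes in purple. A line that runs to the left edge marks a gene with a library at 0, and mec-7 and mec-12 lie below tbb-2, tba-2, tba-1 and tbb-1 at 707 to 1650 CPM per kb.

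Several of the genes share exon sequence with a neighbour on the other strand, from which the unstranded libraries cannot separate them. For mec-17 the shared stretch is 51 bases with arf-5, an abundant gene with 107670 counts over all libraries. For mec-6 it is 35 bases with lbp-6 (36559 counts), and for mec-4 it is 78 bases with aak-2 (11733 counts). Beside these, mec-18 shares 221 bases with C52B9.10, which had 2 counts in all. The mec-12 gene shares 76 bases with Y53G8B.1, mec-9 shares 33 with egl-47 and mec-1 shares 30 with ptr-15, neighbours with at most 817 counts. For mec-2 the overlaps are with non-coding RNAs of at most 1 count, and mec-7 and mec-10 overlap no other gene. The part of such reads in the levels was not tested.

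The mean profile of the 10 genes, each standardised over the 8 libraries, was 0.33 and 0.35 SD in L4440, between -0.23 and 0.32 SD in hlh-2 RNAi, and between -0.41 and -0.22 SD in lin-32 RNAi. Among 11597 other genes with a mean of at least 1 CPM, the highest Pearson correlations with that profile over 8 libraries were those of jhdm-1 (0.968), K05F6.4 (0.962), fbxb-90 (0.955), skr-9 (0.949) and cfz-2 (0.948). The histone demethylase gene jhdm-1 moved only from 191 to 194 CPM over the libraries. The Frizzled receptor gene cfz-2 was at 9.8 and 9 CPM in L4440, at 7.16 to 10.1 CPM in hlh-2 RNAi and at 5.58 to 6.34 CPM in lin-32 RNAi. These are descriptions over shared libraries, and 2.7% of the genes had a correlation above 0.8.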

How the data were processed

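RNA from whole nematodes was sequenced in 8 libraries of 3 groups, with TruSeq RNA v2 libraries, a kit that does not mark strand, per the labels' protocols. The deposited table holds raw counts per WormBase gene, 1 column per library. Per the submitters' processing notes the build was WBcel235, and featureCounts 1.4.6-p4, TopHat2 2.1.0 and bcl2fastq 1.8.4 were used, with annotation and counting settings not given in the sources used here. Symbols matched 43693 of 46748 IDs, and coordinates, exon lengths and overlaps came from the WBcel235 annotation of release 115. A level of 1 CPM is 22.4 counts in the smallest library, and Poisson intervals cover counting error only.

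With edgeR 4.0.16 (R 4.3.3), low genes were removed with filterByExpr by group (minimum count 10), libraries were scaled by TMM, and all 8 entered 1 quasi-likelihood fit with the group as the only term. Standard errors were taken from the F statistic and intervals from its degrees of freedom. DESeq2 1.42.0, limma-voom (limma 3.58.1), other scalings and filters, the replicate block and leaving out each library were alternatives. Steps were tested on simulated data. Between replicates the chi-square of counts was 5.58 to 16.0 per degree of freedom, above sampling noise, so each was counted once. Deviations from the group means correlated at 0.265, 0.194 and 0.191 between equally numbered libraries of both RNAi groups, so these numbers were taken to pair them, which comes from the data and not the labels. The main fit left this pairing out, and only the replicate block used it. The members, gene lists and tests were chosen with earlier results of these data known. Named genes are all members and the genes of each list past the threshold or, where none passed, those with the lowest p. The 5 genes most correlated with the members' mean profile are also named. The genes egl-44, alr-1, unc-86, mec-3, zag-1, ahr-1, mec-5 and the most abundant tubulins were named after their values were seen. So were dma-1, des-2, deg-3, ser-2, unc-31 and the intestine and pharynx markers.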

Additional observations from a re-analysis of the deposited data

How the results depend on the processing

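The count of touch receptor neuron genes past the threshold was 0 in each comparison under all 16 alternatives, among the genes each could test. The filter of 1 CPM left out mec-4, mec-9, mec-10 and mec-18, for which DESeq2 gave no adjusted p in hlh-2 RNAi against L4440. The fit of only the 2 groups left out mec-4 in lin-32 RNAi against L4440. Of 467 recomputed log2 fold changes none passed (smallest adjusted p = 0.181), and 24 changed sign. The number of genes called over the whole table did depend on the setting, and the cause was not tested. Against 106 for lin-32 RNAi, 29 for hlh-2 RNAi and 58 between them, DESeq2 called 177, 49 and 91, no filter called 610, 223 and 342, and the replicate block called 350, 72 and 132. Leaving out 1 library gave 17 to 157, 3 to 31 and 25 to 93. For lin-32 RNAi against L4440 the counts were 41 and 17 without L4440 replicate 1 or 2, 67 without hlh-2 RNAi replicate 2, and 60 and 61 without lin-32 RNAi replicate 2 or 3. For hlh-2 RNAi they were 5 and 3 without either control and 15 and 13 without hlh-2 RNAi replicate 2 or 3. Between the RNAi groups they were 93, 28 and 31 without hlh-2 RNAi replicate 1, 2 or 3 and 25 without lin-32 RNAi replicate 2. Among the other lists, the genes that passed only under an alternative were, beside zag-1, lin-32 in both comparisons with L4440, epi-1 and sto-1 between the RNAi groups with no filter (edgeR adjusted p = 0.0442, 0.0168, 0.00302 and 0.00313), and unc-44 between the RNAi groups without hlh-2 RNAi replicate 1 (0.0319). L4440 replicate numbers did not pair with the others (correlations -0.066 and -0.165 with hlh-2 RNAi, -0.0368 and -0.122 with lin-32 RNAi). The replicate block used these numbers for the controls as well, so its results against L4440 rest on a pairing that was not seen.

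Values that changed sign when a library was left out ran as follows on the log2 scale. In lin-32 RNAi against L4440 these were mec-1 (-0.17 to 0.33), mec-4 (-0.23 to 0.28), mec-9 (-0.53 to 0.15) and mec-10 (-0.16 to 0.067). In hlh-2 RNAi against L4440 they were mec-1 (-0.31 to 0.19), mec-2 (-0.64 to 0.15), mec-6 (-0.10 to 0.011), mec-9 (-0.07 to 0.61), mec-17 (-0.14 to 0.035) and mec-18 (-0.29 to 0.093). Between the RNAi groups they were mec-12 (-0.09 to 0.051), mec-17 (-0.071 to 0.12) and mec-18 (-0.039 to 0.34). With the replicate block mec-4 in lin-32 RNAi was -0.031 and mec-6 in hlh-2 RNAi 0.056, the block changing no member's call. With limma-voom mec-4 in lin-32 RNAi was -0.0082, and with library size alone mec-12 between the RNAi groups was 0.0048. With 1 control left out, the lone control is assumed to vary like the other groups.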
